A study of Mus musculus with 12 samples.

Results

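Potassium channels set the resting potential of neurons and glia, end the action potential and limit how often a neuron fires. The genes named Kcn encode their pore-forming subunits and the auxiliary subunits that bind to them. Here their transcripts were followed in the medial prefrontal cortex (mPFC), which helps to set how unpleasant pain feels, of mice whose sciatic nerve had been constricted. Chronic constriction injury (CCI) of that nerve is a rodent model of neuropathic pain. The members were the protein-coding genes of the table whose symbol starts with Kcn and that had a count of 10 or more in at least 4 libraries. These were 75 of the 94 protein-coding Kcn symbols, in a table of 34745 genes. A further 5 Kcn symbols of non-coding transcripts were left out.

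The groups were the right mPFC of operated mice, contralateral to the nerve (4 libraries), their left mPFC, ipsilateral to it (4 libraries), and the mPFC of naive mice with no treatment (4 libraries). All mice were wild-type males, taken on day 28 after the operation or of habituation. The sources used here give neither strain nor age nor, for naive mice, the hemisphere. A sham-operated group was not analysed here, so nerve constriction, anaesthesia and surgery cannot be told apart. From their codes, left and right libraries of equal number were taken to come from one CCI mouse, although no label states it. These were bulk tissue samples, in which fewer cells of a type and less RNA per cell cannot be told apart.

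Voltage-gated channels of the Kv families open on depolarization and repolarize the cell, and those of the Kv3 family (Kcnc genes) close fast enough to let interneurons fire at high rates. Inward rectifiers (Kcnj) and K2P leak channels (Kcnk) hold the resting potential, and G-protein-gated inward rectifiers (Kcnj3, Kcnj6, Kcnj9) carry the slow inhibition that GABA-B and opioid receptors produce. Channels gated by calcium (Kcnma1, Kcnn) or sodium (Kcnt) shape the afterhyperpolarization. The members comprised 35 voltage-gated pore-forming genes, 12 inward rectifiers, 9 K2P genes, 7 calcium- or sodium-activated genes and 12 auxiliary genes. The 7 were the Kcnma1, Kcnn, Kcnt and Kcnu1 genes, and Kcnu1 was placed there by family rather than by what opens its channel.

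The libraries held 16.1 to 20.6 M (mega-) counts, of which the 75 members took 0.470% to 0.546%. Slc17a7, the vesicular glutamate transporter of cortical excitatory neurons, lay between 1660 and 2000 CPM (counts scaled to library size) in all 12 libraries. The striatal receptor gene Drd2 had 8.77 CPM in contralateral library 1, against 0.703 to 1.62 CPM in the other 11. Of the 10 cell type marker lists, the striatal one stood apart in that library, at 1.18 against -0.215 to -0.025 elsewhere (mean over the list of log2 CPM, each gene centred over the 12 libraries). The meningeal list was at -0.92 in contralateral library 2 and 0.267 in ipsilateral library 2. Mice 1, 3 and 4 had the opposite order, with 0.474, 0.216 and 0.727 in contralateral and -0.558, -0.687 and -0.483 in ipsilateral libraries. The mural list was likewise lower on the contralateral side in mouse 2 only, at -0.321 against 0.105 in its ipsilateral library. Their part in the results below was not tested.

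In 2 members, single libraries departed far from all others. Kcna2 (ENSMUSG00000040724; chromosome 3, 107101146 to 107115005, GRCm38/mm10), a subunit of the axonal channels that keep axons from firing repeatedly, had 33 counts in naive library 1, which is 1.84 CPM. Its other 11 libraries held 4110 to 5989 counts, 225 to 342 CPM. Naive library 1 was thus the lowest by far, and the contralateral, ipsilateral and remaining naive libraries overlapped. Kcnd3 (ENSMUSG00000040896; chromosome 3, 105452330 to 105674002, GRCm38/mm10), which encodes a subunit of the somatodendritic A-type current, had 2022 counts in ipsilateral library 2 and 1466 in naive library 1. The other 10 libraries held 205 to 418 counts of it. Among all 9802 genes with a median count of 200 or more, 48 (0.49%) had a library more than 4-fold away from the gene's median, as did 2 of the 55 members at that depth (3.64%). The neighbouring genes Kcna3 (70 to 173 counts) and Ddx20 (207 to 289 counts) had no library that made up for the missing or added counts. Kcna3 itself was lowest in naive library 1, at 70 counts. The cause of these departures was not tested. Kcnd3 lies outside the rule for naming genes and was chosen after its values were seen.

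**Figure D1:**
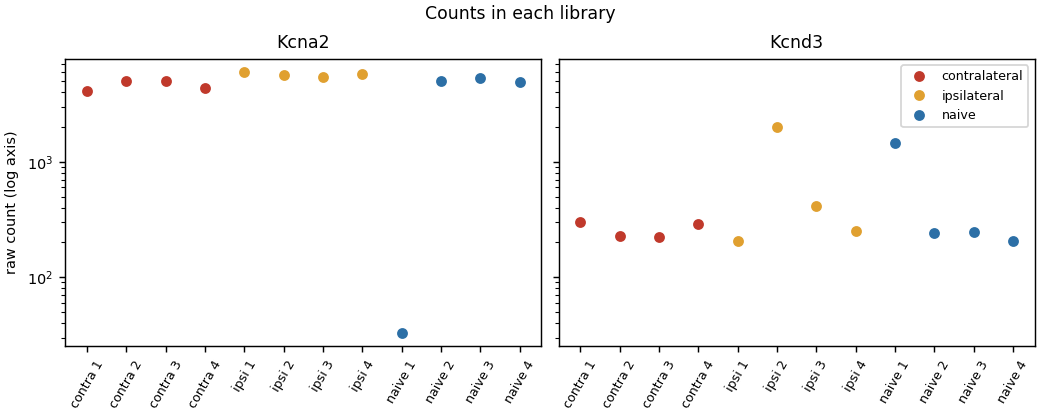
Raw counts of Kcna2 (left) and Kcnd3 (right) in each of the 12 libraries, on a logarithmic axis; each point is 1 library, grouped as contralateral, ipsilateral and naive. Kcna2 had 33 counts in naive library 1, and Kcnd3 stood at 2022 counts in ipsilateral library 2 and 1466 in naive library 1.

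Promoter sequences are shown for Kcna2, which departs in 1 library, and for Kcnc2 and Kcnn3, voltage-gated and calcium-activated members in which mouse 2 differed from mice 1, 3 and 4 between the hemispheres. Each runs from 250 bases before to 50 bases after the RefSeq start on GRCm38.p6, all on the plus strand. Capitals mark the GC box, GGGCGG on either strand, which is the core of the site that factors of the Sp family bind.
Kcna2 (chr3:107101317-107101616): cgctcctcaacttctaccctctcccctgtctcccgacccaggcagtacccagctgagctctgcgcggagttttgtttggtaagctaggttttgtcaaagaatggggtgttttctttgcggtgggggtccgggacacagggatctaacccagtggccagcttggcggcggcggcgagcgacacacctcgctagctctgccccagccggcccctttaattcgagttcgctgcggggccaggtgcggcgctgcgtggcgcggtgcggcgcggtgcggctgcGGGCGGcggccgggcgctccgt
Kcnc2 (chr10:112270873-112271172): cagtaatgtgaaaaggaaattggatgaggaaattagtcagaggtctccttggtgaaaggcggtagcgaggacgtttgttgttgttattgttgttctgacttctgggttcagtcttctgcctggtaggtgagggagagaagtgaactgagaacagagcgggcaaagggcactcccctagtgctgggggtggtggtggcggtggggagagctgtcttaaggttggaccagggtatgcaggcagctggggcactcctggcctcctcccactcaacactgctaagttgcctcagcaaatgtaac
Kcnn3 (chr3:89519914-89520213): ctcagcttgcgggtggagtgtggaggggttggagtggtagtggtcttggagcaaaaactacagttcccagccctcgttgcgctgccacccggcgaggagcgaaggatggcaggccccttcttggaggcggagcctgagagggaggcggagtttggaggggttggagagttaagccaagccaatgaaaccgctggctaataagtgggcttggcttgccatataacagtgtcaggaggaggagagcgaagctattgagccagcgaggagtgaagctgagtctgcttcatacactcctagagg
The RefSeq start of Kcna2 lies 421 bases from the gene start of the deposited table, and those of Kcnc2 and Kcnn3 coincide with it. The Kcna2 window held 1 GC box and 31 CpG dinucleotides. Kcnc2 had 5 CpG dinucleotides and Kcnn3 had 11, and neither had the motif. Of the 75 members, 52 had a promoter in the RefSeq table, and 28 of these (53.8%) held a GC box, against 11714 of all 32851 promoters of the same length (35.7%). Their median number of CpG dinucleotides was 12, against 7 over all promoters. For members only the promoter nearest the deposited gene start was kept, whereas the reference held every promoter, without a filter on counts. The sets were thus chosen differently, and whether the members differ from like genes was not tested.

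Levels between genes were compared by FPKM, which is scaled by gene length. In naive mPFC the members ran from 0.11 to 74.4 FPKM with a median of 6.02, and Kcnj5 was the lowest. A naive mean above 10 FPKM was found for 23 members, between 1 and 10 for 44 and under 1 for 8. Kcnj4 (ENSMUSG00000044216; chromosome 15, 79483718 to 79505241, GRCm38/mm10), a strong inward rectifier of forebrain neurons, was the most abundant in all 3 groups. It averaged 67.6 ± 3.85 FPKM in contralateral, 68.4 ± 3.003 FPKM in ipsilateral and 74.4 ± 4.87 FPKM in naive libraries (SD, n = 4 each). Kcnh3, of the ether-a-go-go-like channels, followed with 54.5 ± 7.93 FPKM in contralateral, 50.1 ± 3.92 FPKM in ipsilateral and 51.5 ± 3.02 FPKM in naive libraries (SD, n = 4 each).

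Among the voltage-gated genes, silent subunits that only work inside Kv2 channels were well represented, with Kcnf1 at 46.5 ± 2.50 and Kcnv1 at 22.1 ± 1.75 FPKM in naive mice (mean ± SD, n = 4). Kcnc4, of the Kv3 family, had 28.5 ± 1.32 FPKM. Of the M-current genes, which damp repetitive firing, Kcnq3 had 12.3 ± 0.81 and Kcnq5 8.63 ± 0.23 FPKM, a difference larger than the spread within naive libraries. Kcnd2, the main A-type pore of cortical pyramidal cells, had 18.8 ± 0.74 FPKM.

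Kcnj10, the inward rectifier by which astrocytes clear potassium, and Kcnj9, a G-protein-gated subunit, lay side by side at 38.8 ± 3.30 and 36.9 ± 1.70 FPKM and did not differ beyond their spread. Kcnj11, the pore of the ATP-sensitive channel, had 18.6 ± 1.07 FPKM, while its vascular counterpart Kcnj8 had 0.805 ± 0.18. Kcnk1 led the K2P genes with 35.6 ± 1.92 FPKM, ahead of the acid-sensitive Kcnk9 at 10.4 ± 2.74. Of the auxiliary genes, Kcnip3 (42.8 ± 1.90) and Kcnab2 (40.3 ± 1.37) were close to each other, and Kcnmb4, the neuronal beta subunit of the BK channel, exceeded the vascular-type Kcnmb1, at 21.3 ± 0.87 against 0.185 ± 0.12 FPKM. The value of Kcnmb1 is uncertain, since the gene lies within Kcnip1 on the other strand. The BK pore gene Kcnma1 had 4.70 ± 1.94 FPKM and differed widely among naive libraries.

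**Figure D2:**
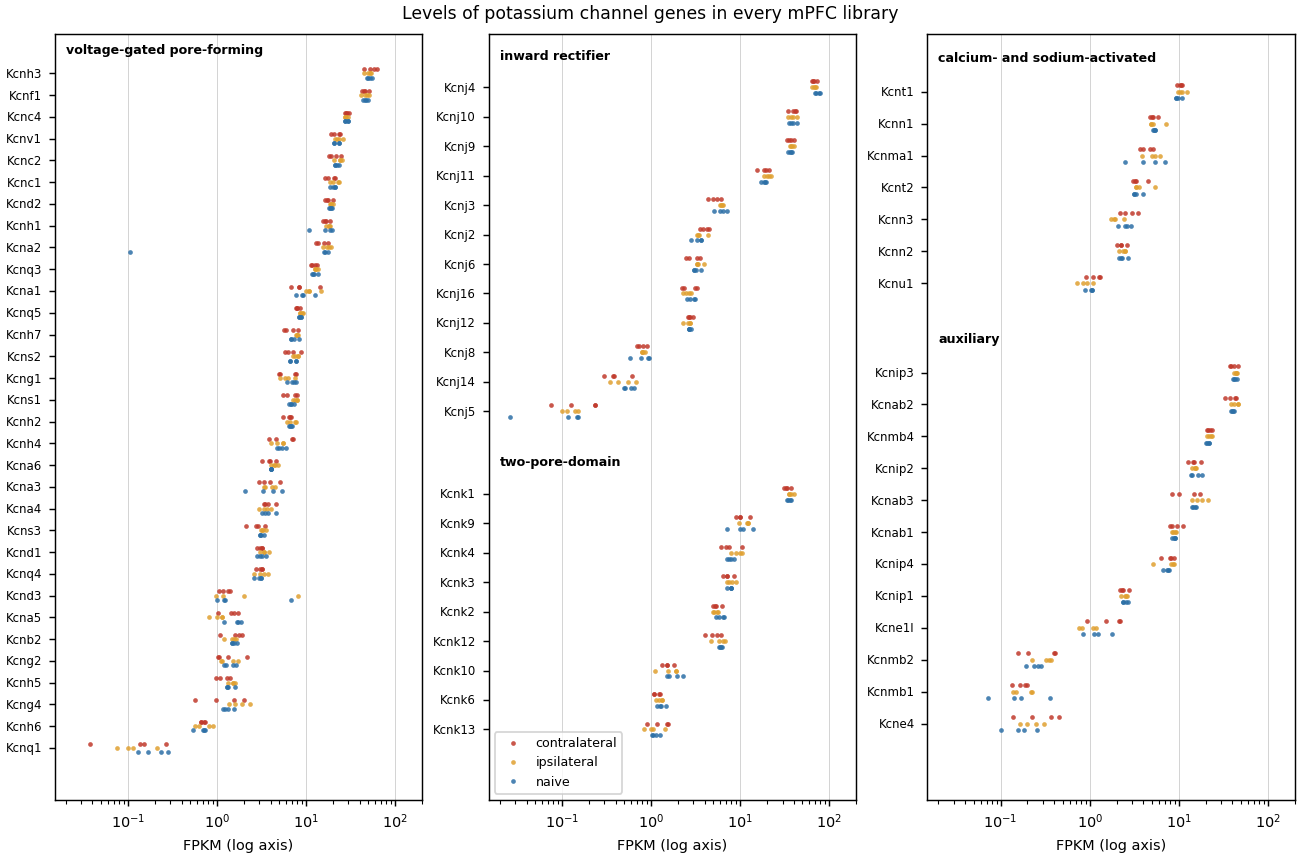
FPKM of 72 of the 75 genes on a logarithmic axis, with 4 points per group (contralateral red, ipsilateral yellow, naive blue), ordered by naive mean within each class; the panel titled two-pore-domain holds the K2P genes. Groups overlie one another for nearly all genes, and single points of Kcna2 (0.104 FPKM in naive library 1) and Kcnd3 (8.18 and 6.87 FPKM) stand away from the rest.

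By the median over members, libraries of one group differed least in naive and most in contralateral mPFC. The coefficient of variation of CPM over 4 libraries had a median of 14.7% in contralateral, 10.4% in ipsilateral and 8.74% in naive libraries. Under 10% were 21 members in contralateral, 36 in ipsilateral and 42 in naive libraries. These values were taken over members only, so whether this order is particular to them was not tested. Kcna6 varied least of all in naive mice, with 68.4, 68.7, 70.2 and 69.1 CPM in libraries 1 to 4. Naive library 1 was the lowest of its group for several genes besides Kcna2. Kcnh1 had 85.97, 129.9, 149 and 154 CPM in naive libraries 1 to 4, and Kcnma1 had 25.7, 55.9, 72.9 and 40.8. Without that library, the log2 fold changes of CCI against naive mice were -0.07 for Kcnh1 and -0.19 for Kcnma1, against 0.09 and 0.02 with it.

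No member passed at an adjusted p under 0.05 in any of the 4 comparisons made, with edgeR, DESeq2 or limma voom, and the share of all genes that passed in edgeR was 0.0% in each. The first comparison, contralateral against naive, asks what differs opposite to the injured nerve. At an unadjusted p under 0.05 stood 2 of 75 members, where 3.78% of all 15808 genes tested did. Of the members, 46 lay below naive and 29 above it, with a median log2 fold change of -0.03, against 49.9% of all genes below and a median of 0.00. The balance rested on single libraries. It was 38 below and 37 above without contralateral library 1, and 40 below and 35 above without contralateral library 4 or without naive library 3. The number at an unadjusted p under 0.05 ran from 0 to 10 with single libraries left out, the 0 without naive library 1 or 4 and the 10 without contralateral library 2. By class, 24 of 35 voltage-gated genes, 7 of 12 inward rectifiers, 6 of 9 K2P genes, 3 of 7 calcium- or sodium-activated genes and 6 of 12 auxiliary genes were below naive. All 12 oligodendrocyte markers lay above naive in contralateral (median 0.31) as in ipsilateral libraries (median 0.19), and none passed. The libraries of each group were far apart in this list. Its score was 0.543, 0.70, -0.394 and -0.409 in contralateral libraries 1 to 4 and 0.466, 0.111, -0.051 and -0.428 in ipsilateral libraries 1 to 4, against -0.363 to 0.056 in naive libraries. Contralateral libraries 1 and 2 thus lay above all naive libraries and contralateral libraries 3 and 4 below them.

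The smallest p belonged to inward rectifiers. Kcnj4 had 139, 137, 156 and 146 CPM in contralateral libraries 1 to 4, against 165, 150.2, 152 and 171 CPM in naive libraries. Contralateral library 3 lay within the naive range, so the groups overlapped. Its log2 fold change was -0.14 (SE 0.06), with an adjusted p of 1.0. Kcnj2, another strong inward rectifier, had 23.6, 19.3, 21 and 22.98 CPM in contralateral libraries, against 17.8, 19.9, 19.9 and 15.2 CPM in naive ones, a log2 fold change of 0.26 (SE 0.11). Kcnj3, the shared subunit of G-protein-gated channels, had 52.1, 65.8, 58.9 and 46.1 CPM in contralateral libraries, against 62.9, 54.5, 76.4 and 68.8 CPM in naive ones, with -0.24 (SE 0.11). Both pairs of groups overlapped, and the adjusted p was 1.0 for each.

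Next after them came Kcne4, a regulatory subunit that inhibits some Kv channels, at 0.77 (SE 0.37), although it had a mean of only 1.31 CPM in contralateral libraries, against 0.777 CPM in naive ones. Kcnk2, the stretch- and lipid-gated leak channel TREK-1, had -0.17 (SE 0.08) and Kcnq5 had -0.10 (SE 0.05). Each of the 8 silent Kv subunits had a value below 0, between -0.18 and -0.01. The Kv3 genes Kcnc1 and Kcnc2 lay at -0.10 and -0.09. The sign of Kcna2, 0.24, turned to -0.16 without naive library 1, and that of Kcnd3, -1.06, to 0.12.

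The second comparison set the hemisphere on the side of the nerve against naive mice, and uses the same naive libraries as the first. Here 53 members lay above naive and 22 below, with a median log2 fold change of 0.07, against 49.9% of all genes above and a median of 0.00. With single libraries left out, 49 to 55 members lay above naive. At an unadjusted p under 0.05 stood 2 of 75 members and 4.83% of all genes. That number ran from 1 to 4, the 1 without naive library 1 and the 4 without ipsilateral library 2. Voltage-gated genes lay above naive in 27 of 35 cases (median 0.09), inward rectifiers in 8 of 12, K2P genes in 4 of 9, calcium- or sodium-activated genes in 5 of 7 and auxiliary genes in 9 of 12.

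Kcna5 (ENSMUSG00000045534; chromosome 6, 126532551 to 126535412, GRCm38/mm10), a delayed rectifier best known from heart and blood vessels, had 2.40, 3.30, 2.88 and 3.30 CPM in ipsilateral libraries 1 to 4, against 5.30, 3.47, 4.90 and 4.81 CPM in naive libraries. All ipsilateral libraries lay below all naive ones, as was so for 2.77% of all genes. The log2 fold change was -0.64 (SE 0.18), with an unadjusted p of 0.00385 and an adjusted p of 0.901. Kcna6, a relative of Kcna2, had 84.7, 78.1, 71.1 and 76 CPM in ipsilateral and 68.4, 68.7, 70.2 and 69.1 CPM in naive libraries. It was the 1 member whose ipsilateral libraries all lay above the naive ones, as 1.95% of all genes did, by a log2 fold change of 0.17 (SE 0.09) and an adjusted p of 0.972.

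Kcnk2 had 50.9, 47.2, 45.6 and 52.01 CPM in ipsilateral libraries, against 59.7, 49.3, 53.5 and 59.4 CPM in naive libraries, with -0.18 (SE 0.08). Kcnn3, a small-conductance calcium-activated channel, had -0.32 (SE 0.15), and the sodium-activated Kcnt1 had 0.16 (SE 0.08). None of these passed (adjusted p 0.972 each). Kcnj4 lay at -0.10 (SE 0.06) here and at -0.14 in the contralateral comparison.

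When the hemispheres of each CCI mouse were summed, so that the mouse was the replicate (4 CCI and 4 naive mice), 46 members lay above naive and 29 below. The median log2 fold change was 0.02, against 0.00 over all 16179 genes tested, of which 50.3% lay above. Without naive mouse 1 there were 37 members above and 38 below, and with any other mouse left out 41 to 46 lay above. At an unadjusted p under 0.05 stood 4 members and 4.2% of all genes: Kcnk2 with -0.17 (SE 0.07), Kcna5 with -0.38 (SE 0.15), Kcnj2 with 0.20 (SE 0.09) and Kcnj4 with -0.12 (SE 0.06). Each had an adjusted p of 1.0. With single mice left out, 0 to 7 members stood under that p, 0 of them without CCI mouse 1, naive mouse 1 or naive mouse 4. Some pores were placed within narrow limits and others were not. Within 2 SE of the log2 fold change, Kcnc2 lay in the interval -0.08 to 0.10, Kcnk1 in -0.10 to 0.10 and Kcnq3 in -0.07 to 0.14. The intervals of Kcnh1 (-0.26 to 0.43), Kcna1 (-0.23 to 0.48) and Kcnma1 (-0.60 to 0.64) were wider. Kcna2 had 0.36, which became -0.05 without naive mouse 1.

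**Figure D3:**
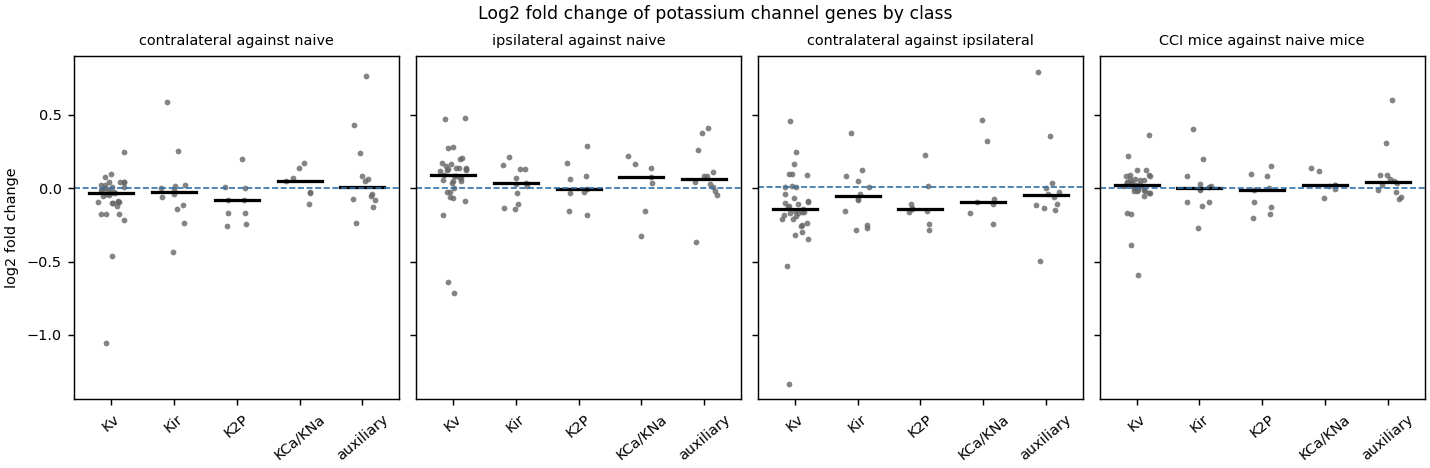
Log2 fold change of each gene (points) by class, with the class median (black bar) and the median of all genes tested (dashed line), in the 4 comparisons; Kv are voltage-gated pore-forming genes, Kir inward rectifiers, and KCa/KNa calcium- and sodium-activated genes. In contralateral against ipsilateral every class median is below the dashed line, from -0.15 for Kv to -0.05 for auxiliary genes.

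The third comparison set the hemispheres of the CCI mice against each other. Every contralateral library was from the right side and every ipsilateral one from the left. Side of the injury and ordinary right-left difference therefore cannot be told apart, here or against naive mice of unstated hemisphere. In contralateral against ipsilateral libraries 54 of 75 members (72.0%) lay lower, against 48.9% of all genes, and the median log2 fold change was -0.11, against 0.005 over all genes. At an unadjusted p under 0.05 stood 12 members, 3 higher and 9 lower, where 8.36% of all genes did (4.58% higher and 3.78% lower). None passed, the smallest adjusted p being 0.592. With single libraries left out in turn, 52 to 56 members lay lower, while the number at an unadjusted p under 0.05 ran from 5 to 24. It was 5 without contralateral library 1, contralateral library 4 or ipsilateral library 3, 7 without ipsilateral library 4, 8 without ipsilateral library 1, 19 without ipsilateral library 2 and 24 without contralateral library 2. Excitatory neuron markers were mostly on the same side, with 10 of 13 genes lower (median -0.11). Their list scores were -0.113, -0.115, -0.02 and -0.112 in contralateral libraries 1 to 4 and -0.029, 0.043, -0.021 and 0.144 in ipsilateral libraries 1 to 4. By mouse the list did not follow the members. In mouse 2 it lay lower on the contralateral side, where the member median lay higher (0.06 log2 CPM), and in mouse 3 the sides were nearly equal. Of the interneuron markers 10 of 15 lay lower (median -0.01). Markers of non-neuronal cells lay on the other side. Higher were 12 of 13 astrocyte (median 0.15), 12 of 12 microglia (0.20), 12 of 12 oligodendrocyte (0.14), 8 of 8 oligodendrocyte precursor (0.18), 10 of 10 endothelial (0.15), 10 of 10 mural (0.20) and 12 of 12 meningeal genes (0.56), as well as 9 of 11 striatal genes (0.27). The striatal list stood high only in contralateral library 1. In mice 3 and 4 it was lower on the contralateral side, at -0.159 and -0.215 against -0.107 and -0.035. No marker gene passed. Their part in the members' values was not tested.

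Kcnn3 had the smallest p of the members. Its CPM was 32.95, 24.4, 27.7 and 39.2 in contralateral libraries 1 to 4, against 19.7, 27.4, 21.98 and 21.1 in ipsilateral libraries. Contralateral library 2 lay below ipsilateral library 2, and the other mice were higher on the contralateral side. The log2 fold change was 0.46 (SE 0.15). Kcnq5, an M-current subunit, had 110.5, 112, 123 and 113 CPM in contralateral and 124, 122, 135 and 130.3 CPM in ipsilateral libraries, with -0.16 (SE 0.05). It was lower on the contralateral side in 4 of 4 mice, as were Kcnj3, by only -0.005 log2 CPM in mouse 2, and Kcnh5. These 3 were 4.0% of the members, against 6.33% of all genes.

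Kcnj3 had 52.1, 65.8, 58.9 and 46.1 CPM in contralateral and 64.9, 66, 68.98 and 69.1 CPM in ipsilateral libraries, with -0.27 (SE 0.11). Its partner Kcnj6 had -0.25 (SE 0.11), and the third brain subunit Kcnj9 had -0.08 (SE 0.07). Kcnh5 and Kcnh7, of the ether-a-go-go group of channels, had -0.34 (SE 0.13) and -0.26 (SE 0.10). Kcna6 had -0.21 (SE 0.09), the leak channel Kcnk1 -0.16 (SE 0.07) and Kcnd2 -0.14 (SE 0.07). Higher on the contralateral side were Kcna5 with 0.46 (SE 0.18) and Kcne1l, an auxiliary subunit of the KCNE family, with 0.79 (SE 0.28). Kcne1l was scarce, at 3.29, 1.44, 2.38 and 3.27 CPM in contralateral and 1.83, 1.70, 1.27 and 1.19 CPM in ipsilateral libraries.

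The Kv3 gene Kcnc2 and the subunit genes Kcnab3 and Kcng4 differed widely between mice. Kcnc2 (ENSMUSG00000035681; chromosome 10, 112271123 to 112466304, GRCm38/mm10), a pore of fast-spiking cells, had 109, 155, 133 and 116 CPM in contralateral libraries 1 to 4 and 159, 128, 152 and 154 CPM in ipsilateral libraries. It was low in contralateral libraries 1 and 4 and had its highest contralateral value in library 2. Kcnab3, a cytoplasmic beta subunit that binds Kv1 channels, had 25.2, 52.95, 45.6 and 30.4 CPM in contralateral and 67.1, 43.8, 49.2 and 57.5 CPM in ipsilateral libraries. Kcng4, a silent subunit, had 2.69, 10, 7.59 and 4.71 CPM in contralateral and 11.7, 6.69, 9.49 and 8.02 CPM in ipsilateral libraries. In these 3 genes mouse 2 was higher on the contralateral side, and mice 1, 3 and 4 were lower. Kcnc4, another Kv3 gene, stayed between 101 and 109 CPM in the contralateral and between 100.3 and 108 CPM in the ipsilateral libraries, with a log2 fold change of 0.005 (SE 0.05).

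**Figure D4:**
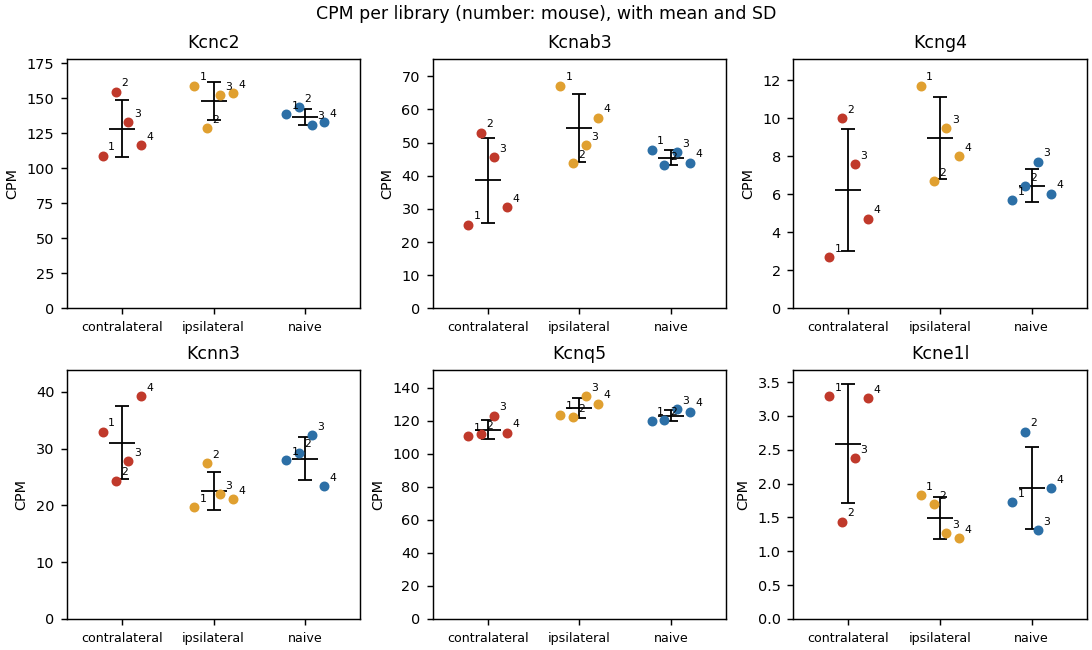
CPM of 6 members in the contralateral, ipsilateral and naive libraries, from an axis that starts at 0; points are libraries numbered by mouse, and the bars give the mean and SD of 4 libraries. Kcnc2, Kcnab3 and Kcng4 are lowest in contralateral libraries 1 and 4 and high in contralateral library 2, and Kcnn3 has the reverse order.

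Mouse by mouse, the contralateral side was lower for 54 members in mouse 1, 32 in mouse 2, 45 in mouse 3 and 55 in mouse 4, each of 75. The median differences were -0.20, 0.06, -0.08 and -0.15 on the log2 CPM scale, while those of all genes lay between -0.007 and 0.009. Lower in exactly 3 of the 4 mice were 44 members (58.7%), against 26.7% of all genes. In 29 members (38.7%) the contralateral side was lower in mice 1, 3 and 4 and higher in mouse 2, against 12.8% of all genes. The reverse pattern was found in 7 members (9.33%) and 12.5% of all genes. Kcng4 had differences of -2.08, 0.57, -0.32 and -0.75 in mice 1 to 4, and Kcnab3 had -1.41, 0.27, -0.11 and -0.92. Only Kcnk13, a leak channel of microglia, and Kcnu1, whose product is known from sperm, had higher contralateral values in each of the 4 mice. The difference of Kcnk13 in mouse 1 was only 0.017. Lower in 0 of the 4 mice were thus 2 members (2.67%), against 6.43% of all genes.

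**Figure D5:**
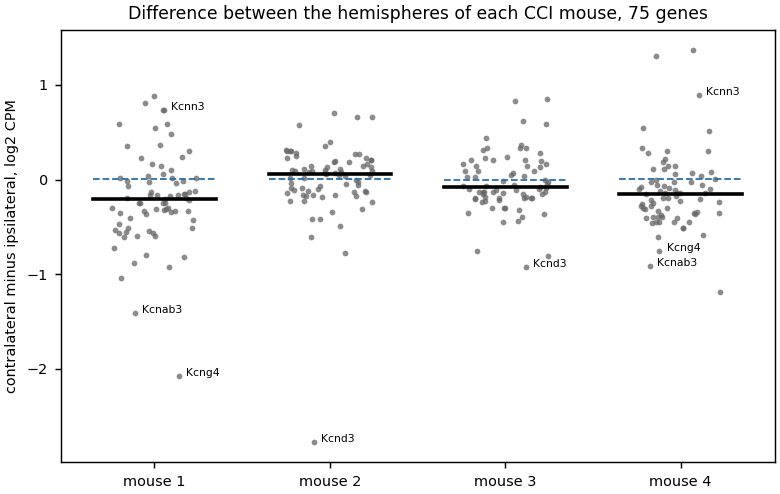
Contralateral minus ipsilateral log2 CPM of the 75 genes (points) in each CCI mouse, with the median of the 75 genes (black bar) and of all genes tested (dashed line); some genes beyond 0.7 are named. The black bar is below the dashed line in mice 1, 3 and 4 (-0.20, -0.08 and -0.15) and above it in mouse 2 (0.06).

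Both libraries of 1 mouse were also left out at a time. Without mouse 1, 3 or 4, no member and no gene passed in contralateral against ipsilateral, 51, 55 and 52 members lay lower, and 4, 10 and 1 members stood at an unadjusted p under 0.05 in edgeR, where 5.29%, 5.75% and 2.98% of all genes did. Without mouse 2, 53 members lay lower and 27 stood at that p, against 17.6% of all genes, and 286 of 15919 genes (1.8%) passed the adjusted threshold. That setting was chosen with the values of mouse 2 known, and mouse 2 is the 1 mouse whose member median ran the other way, so its values describe mice 1, 3 and 4 and are no test of the hemispheres. In it Kcnc2 had a log2 fold change of -0.37 (SE 0.07, adjusted p 0.0309) and Kcnn3 (ENSMUSG00000000794; chromosome 3, 89520164 to 89675132, GRCm38/mm10) had 0.68 (SE 0.13, adjusted p 0.0323), the 2 members under the threshold. With all 4 mice their adjusted p was 0.595 and 0.592. Without mouse 1, 3 or 4, Kcnc2 had log2 fold changes of -0.105, -0.21 and -0.15 and Kcnn3 had 0.37, 0.50 and 0.30, with adjusted p of 0.807 to 1.0. When contralateral library 2 alone was left out, 159 genes but no member passed.

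Proteins that assemble with these channels were followed on a list of 20 partner genes, such as the Dpp6 and Dpp10 subunits of A-type channels and the sulfonylurea receptors, of which 18 were tested. In contralateral against ipsilateral libraries 16 of the 18 lay lower (median log2 fold change -0.08) and none passed. The sulfonylurea receptor gene Abcc8, partner of Kcnj11, had -0.21 (SE 0.07), the actin-binding Actn2 had 0.28 (SE 0.10) and Lrrc38, a gamma subunit of BK channels, had -0.54 (SE 0.22), with an adjusted p of 0.592 each. Pumps and transporters that carry potassium made up a list of 25 genes, of which 24 were tested. On it 14 lay lower and 10 higher, with a median of -0.03, and none passed. The sodium pump beta subunit gene Atp1b1 had -0.20 (SE 0.08) and the glial pump regulator Fxyd1 0.31 (SE 0.12), again with an adjusted p of 0.592 each. Against naive mice, 8 of the 18 partners lay higher in contralateral and 14 in ipsilateral libraries, and 14 of the 24 pumps and transporters in each, with none passing.

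Some counts may be shared with overlapping genes, since whether the authors' counting used strand is not stated in these sources. Another gene of the table overlapped 29 members. Over all libraries A830039N20Rik (22690 counts) exceeded Kcnma1 (10408), Gm9899 (8308) exceeded Kcnk3 (7012) and the antisense Kcnq1ot1 (2415) exceeded Kcnq1 (152). Kcnip1 (5537), on the other strand, exceeded Kcnmb1 (160), which lies wholly within it. The values of Kcnma1, Kcnk3, Kcnq1 and Kcnmb1 are thus uncertain. For Kcna6 the antisense Gm26673 held 782 counts against 15072.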

How the data were processed

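RNA sequencing libraries of mPFC tissue were made with an mRNA kit, per the labels' protocols. The authors deposited a table of raw counts per gene and library, with FPKM values beside them. HISAT2 2.0.4 and the build GRCm38/mm10 are listed, with no role, per the submitters' processing notes. The sources used here do not give the counting program, annotation release or strand setting. Between libraries, the ratio of count to deposited FPKM changed by the same factor for all well-counted genes, within a relative departure of 8.46e-06. FPKM served only to compare levels between genes. All 75 members were protein-coding in GENCODE vM21.

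Totals ranged from 16.09 to 20.65 M (mega-) counts. All tests used edgeR 4.0.16 (R 4.3.3) on the counts as deposited, with TMM factors (0.985 to 1.025), filterByExpr by group and robust quasi-likelihood fits, two-sided, adjusted by Benjamini-Hochberg over all genes tested. One fit held 12 libraries in 3 groups, and another 8 mice with the hemispheres of each CCI mouse summed. CPM uses the TMM factors, log2 CPM a prior count of 2, and the SE is the fold change over the root of its F statistic. All 75 members passed the filter in both fits. The test was checked on simulated counts. With no statement that replicates came from separate animals, p-values measure the spread between these libraries.

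The members, classes, gene lists and comparisons were chosen with earlier results of these data known. For differences, the naming rule took members with an adjusted p under 0.05, the 6 higher and 6 lower of smallest unadjusted p in each of the 4 comparisons, and 20 further members named at all times; some genes it took are not reported here. Kcnd3, and in contralateral against ipsilateral Kcnab3, Kcng4, Kcnc4 and Kcnj9, were added after their values were seen. Alternatives were median-ratio factors, no filter, DESeq2 1.42.0, limma voom 3.58.1, fits of only the groups compared, a replicate block, and leaving out each library, each mouse, or both libraries of mouse 2, which was picked with its values known; leaving out both libraries of mouse 1, 3 or 4 was added after the data were seen.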

Additional observations from a re-analysis of the deposited data

Results flagged for a closer look

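In groups of 4 libraries, a member's highest or lowest library was marked when its gap to the next, over the group's range, exceeded Dixon's 95% critical value. Of 225 groups tested over all members, 14 (6.22%) were marked, where chance marks about 1 in 20, and 7 of them were in members named in the text. Kcna2 had 1.84 CPM in naive library 1, against 286 to 317 CPM in the other naive libraries. Kcnd3 had 98.1 CPM in ipsilateral library 2, against 11.8 to 24.0 CPM in the other ipsilateral libraries. It also had 81.7 CPM in naive library 1, against 12.02 to 14.8 CPM in the other naive libraries. Kcna1, the Kv1 subunit whose loss causes episodic ataxia, had 118.0 CPM in ipsilateral library 1, against 81.4 to 86.1 CPM in the others of its group. Kcnj6 had 24.6 CPM in the same library, against 20.2 to 20.7 CPM. Kcnj2 had 24.0 CPM in ipsilateral library 2, against 18.2 to 19.1 CPM. Kcnh5 had 6.58 CPM in naive library 3, against 5.19 to 5.42 CPM.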

How the results depend on the processing

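No member passed under any alternative except without both libraries of mouse 2, where contralateral against ipsilateral gave 286 genes and 2 members, Kcnc2 (-0.37) and Kcnn3 (0.68), with a member median of -0.17. Mouse 2 was picked with its values known; without both libraries of mouse 1, 3 or 4, alternatives added after the data were seen, 0 genes and 0 members passed, and the member median was -0.082, -0.118 and -0.075. Over all genes, where edgeR called 0, contralateral against naive gave 3 with DESeq2, 1 with only the 2 groups, 1 with the replicate block and 0 to 2 with 1 library left out; ipsilateral against naive gave 9, 7, 1 and 0 to 1; contralateral against ipsilateral gave 0 to 159 with 1 library left out, the 159 without contralateral library 2. CCI against naive mice gave 5 with no filter, 31 with DESeq2, 1 with the replicate block and 0 to 6 with 1 mouse left out. Same-numbered contralateral and ipsilateral libraries deviated together by correlations of -0.14 to 0.06, so the numbers did not show pairing; the replicate block called 0 members in each comparison and left 8 members at an unadjusted p under 0.05 in contralateral against ipsilateral, against 12 without it.

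Of 1579 alternative log2 fold changes of named members, 70 turned sign. In CCI against naive mice, Kcnn2 gave 0.003 with no filter, 0.001 with limma voom and 0.000 with the block, and Kcnd3 gave 0.041 with limma voom and 0.079 with the block. In contralateral against ipsilateral, Kcnj10 gave -0.016 without mouse 2, -0.021 without mouse 3 and -0.056 without mouse 4, Kcnt1 gave 0.014 without mouse 1, and Kcnn2 gave 0.003 and Kcnk2 -0.092 without mouse 3. The cause was not tested.

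With 1 library or mouse left out in turn, the members whose sign turned had these ranges. In contralateral against naive they were Kcnma1 -0.31 to 0.15, Kcnn2 -0.11 to 0.033, Kcnj10 -0.014 to 0.086, Kcnh1 -0.12 to 0.12, Kcnq3 -0.057 to 0.036, Kcna1 -0.31 to 0.12, Kcna2 -0.16 to 0.46 and Kcnd3 -1.32 to 0.12. In ipsilateral against naive they were Kcnma1 -0.072 to 0.40, Kcnn2 -0.006 to 0.10, Kcnj10 -0.044 to 0.070, Kcnj3 -0.045 to 0.12, Kcnh1 -0.002 to 0.24 and Kcnd3 -0.88 to 1.45. In contralateral against ipsilateral they were Kcnj10 -0.034 to 0.072 and Kcnk2 -0.057 to 0.056. In CCI mice against naive mice they were Kcnma1 -0.19 to 0.28, Kcnn2 -0.044 to 0.066, Kcnj10 -0.024 to 0.072, Kcnj6 -0.042 to 0.070, Kcnk1 -0.023 to 0.030, Kcnh1 -0.065 to 0.18, Kcna2 -0.048 to 0.58, Kcnc1 -0.050 to 0.018, Kcnc2 -0.007 to 0.036, Kcnd2 -0.045 to 0.005 and Kcnd3 -0.95 to 1.00.

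Depth limits the members with few counts, such as Kcnj5, Kcnq1 and Kcne1l, which had 128, 152 and 427 counts over all libraries. The hemisphere comparison rests on 4 mice, and in mouse 2 the member median had the opposite sign.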
